A study of Arabidopsis thaliana with 8 samples.

Results

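CCS and MSRB6 are a pair of redox genes of Arabidopsis thaliana whose transcripts were measured in rosettes of the yda-2 mutant and of wild type (WT). CCS (AT1G12520) is read by probe set 15606_at and MSRB6 (AT4G04840) by probe set 14393_at. They are the 2 probe sets, of 8297 on the array, that the array's gene annotation assigns to one of these genes and to no other. The genes were chosen by their signals in the comparison of yda-2 with WT, of which earlier results were known. Their differences between the genotypes are therefore described here and not tested.

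Affymetrix AtGenome1 arrays, 4 for yda-2 and 4 for WT, were hybridized with RNA from the aerial parts of rosettes taken before bolting. The yda-2 plants carry a mutant allele of YODA, a kinase that acts at the top of a mitogen-activated protein kinase cascade and restrains stomatal formation. They are compared with WT plants, and both genotypes were grown in potting mix under constant light at 22 °C. The replicates are separate plantings harvested at different times, and the yda-2 and WT arrays of the same number are treated as a pair. The labels do not give the accession background, the number of plants in a sample or the plants' age in days. With 4 arrays a genotype, precision is limited throughout by their number.

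Copper/zinc superoxide dismutases convert superoxide to hydrogen peroxide and need a copper ion in their active site. CCS is the chaperone that delivers this copper, and in Arabidopsis its transcript, like those of the dismutases it serves, is a target of the microRNA miR398, which accumulates when copper is scarce. Methionine sulfoxide reductases repair methionine residues that oxidants have converted to the sulfoxide, with the A type acting on one stereoisomer and the B type, to which MSRB6 belongs, on the other. They draw their electrons from thioredoxins or glutaredoxins, so the systems are separate arms of the defence against reactive oxygen species.

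The arrays varied more by harvest than by genotype, which bears on all values below. The highest signal on an array was 22519 to 33920 in replicates 1 and 2 and 6226 to 10422 in replicates 3 and 4, and each of these array sets holds both genotypes equally. The array of WT replicate 2 stood apart, with a mean correlation of 0.819 with the other arrays across probe sets, against 0.873 to 0.903 for the rest. Of 14 green leaf marker genes, RCA, which encodes the activase of Rubisco, was the single one with a tested probe set of its own, and it was present on every array, at 1549 to 19368 in yda-2 and 836.9 to 22444 in WT. The 25 marker genes of root, flower and seed had no probe set named as theirs alone in the annotation used here. In whole rosettes, fewer cells of a type and less RNA per cell cannot be told apart.

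The CCS transcript was more abundant in yda-2 rosettes, and the groups did not overlap. In yda-2 its signal, on the linear scale set by the authors, was 1368, 2288, 2079 and 1783 in replicates 1 to 4, against 992.0, 1258, 752.7 and 829.6 in WT. The lowest yda-2 array, replicate 1, lay above the highest WT array, replicate 2. The means were 1880 ± 399 in yda-2 and 958.1 ± 223.5 in WT (SD, n = 4 each), a ratio of 1.96. On the log2(signal + 16) scale the difference, yda-2 minus WT, was 0.96 (SE 0.26). Of the 4788 probe sets tested, which are those with a mean signal of at least 100, 83 had every yda-2 value above every WT value (1.73%). By the size of its difference CCS ranked 83rd from the top of the 4788. These shares describe the contrast in which CCS was noticed, and nothing is inferred from them.

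The MSRB6 transcript was less abundant in yda-2 on average, with 1 pair that did not follow. Its signal was 258.9, 528.3, 232.7 and 355.6 in yda-2 replicates 1 to 4, against 434.0, 509.4, 717.2 and 959.9 in WT. The groups overlapped, because yda-2 replicate 2 lay above WT replicates 1 and 2. The means were 343.9 ± 133.8 in yda-2 and 655.1 ± 235.8 in WT (SD, n = 4 each), so that the yda-2 mean was 0.525 of the WT mean. The log2 difference was -0.90 (SE 0.33). It ranked 41st from the bottom of the 4788 tested probe sets, and 28.2% of all tested probe sets were, like MSRB6, lower in yda-2 in 3 or more pairs. Every yda-2 value lay below every WT value for 31 of the 4788 (0.647%), and MSRB6 was not among them.

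**Figure D1:**
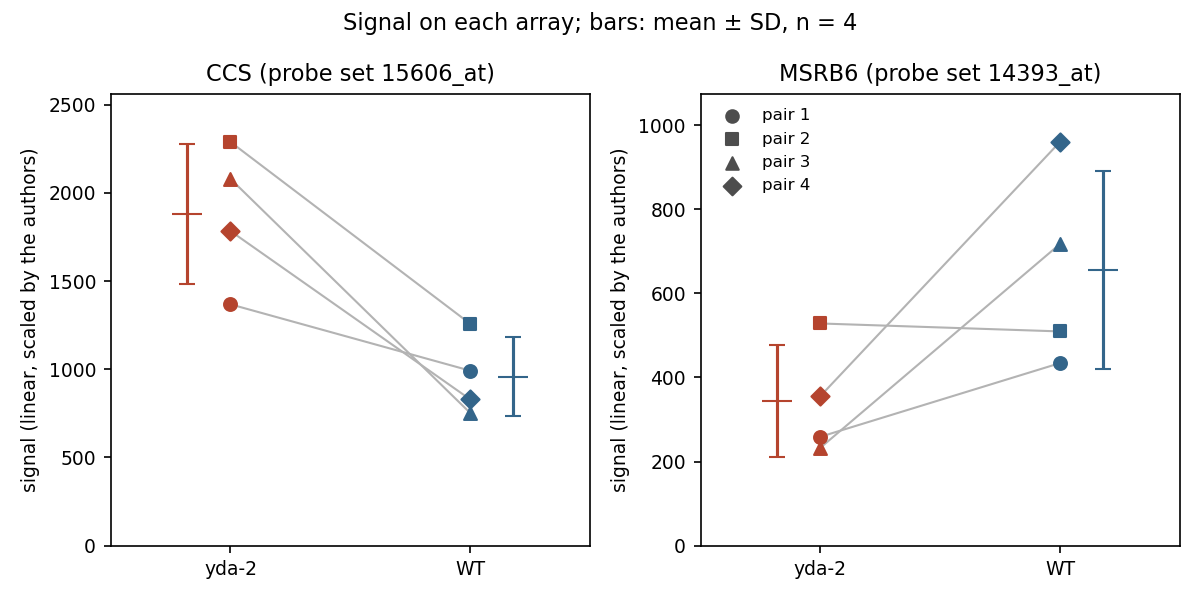
Signal of CCS (left) and MSRB6 (right) on each array, on a linear axis that starts at 0, for yda-2 and WT. Grey lines join the arrays of a pair, and the bars give the mean and SD of 4 arrays. All yda-2 points of CCS, 1368 to 2288, sit above all WT points, 752.7 to 1258, whereas MSRB6 is lower in yda-2 in pairs 1, 3 and 4 and nearly level in pair 2.

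Pair by pair, CCS was higher in yda-2 in 4 of 4, as were 9.44% of the tested probe sets. The log2 differences of CCS were 0.46, 0.85, 1.45 and 1.09 in pairs 1 to 4, that is, 1.38, 1.82, 2.76 and 2.15 times the WT signal. The smallest came from pair 1 and the largest from pair 3. The log2 differences of MSRB6 in the same pairs were -0.71, 0.05, -1.56 and -1.39. In pair 3 WT had 3.08 times the yda-2 signal, and in pair 2 the arrays were nearly equal. Under the authors' scaling both genes thus had their largest difference in pair 3, in opposite directions, whereas with other scalings pair 4 was the largest for CCS (1.66, arrays at an equal control signal) or for MSRB6 (-1.63, median centring).

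The size of both differences was greater in replicates 3 and 4 than in replicates 1 and 2, but the change between these array sets did not pass a test. CCS differed by 1.27 in replicates 3 and 4 and by 0.66 in replicates 1 and 2. The change of 0.61 had a 95% interval of -0.37 to 1.60 (limma, genotype by array set, adjusted p = 0.973). MSRB6 differed by -1.48 in replicates 3 and 4 and by -0.33 in replicates 1 and 2, a change of -1.15 with an interval of -2.37 to 0.08 (adjusted p = 0.973). Over all tested probe sets 0 passed (0%), with 3.13% at an unadjusted p under 0.05. The array sets were recognised from the range of the signals after the data were seen, and the genes were chosen by the same genotype contrast. The fit had no replicate block, so the pairing was not used and harvest variation within a set entered the intervals. The intervals and p-values are therefore a description and decide nothing about the 2 genes. As harvests and arrays changed together, the plants and the array processing cannot be told apart.

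How much the arrays were scaled mattered for the size of the differences and not for their sign. Median centring gave 0.93 for CCS and -0.94 for MSRB6, and quantile normalization gave 0.91 and -0.89. The bacterial and phage control probe sets, 9 in number, had a lower signal in yda-2 in 4 of 4 pairs, by 0.39 on average on the log2 scale. They differed more between array sets. Their mean log2 signal on an array was 10.67 to 11.24 in replicates 1 and 2 and 9.06 to 9.63 in replicates 3 and 4. With the arrays shifted to an equal control signal, the median difference of all tested probe sets was 0.41, against 0.02 under the authors' scaling. CCS was then at 1.35, and MSRB6 at -0.52. Relative to the median of all probe sets the differences were 0.94 and -0.93, which a shift of whole arrays leaves as they are by construction.

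Signs of RNA quality also moved with genotype in places. In yda-2 the 3' over 5' signal ratio of ubiquitin was the higher one in each of the 4 pairs, by 0.34 on average on the log2 scale and by 0.59, 0.66, 0.01 and 0.09 in pairs 1 to 4. For GAPDH the differences in the same pairs were -0.26, 0.76, -0.54 and 0.17, of which 2 were above 0. The part of these measures in the levels of CCS and MSRB6 was not tested.

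**Figure D2:**
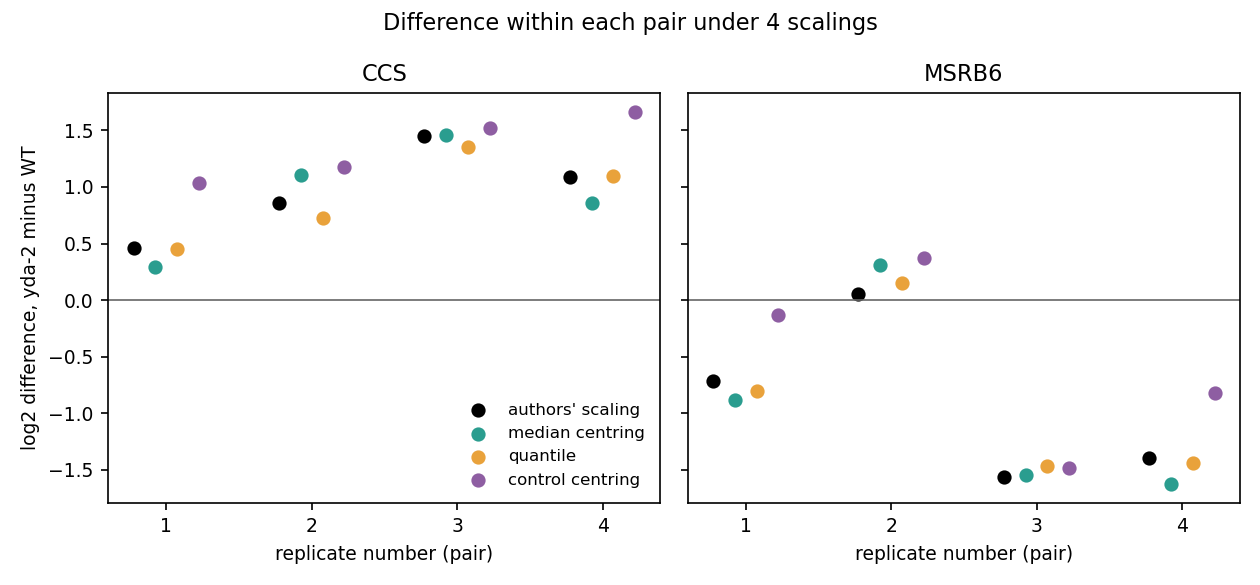
Log2 difference, yda-2 minus WT, of CCS (left) and MSRB6 (right) within each of the 4 pairs, as deposited and after 3 other scalings. CCS lies above 0 in every pair under all 4 scalings, from 0.29 to 1.66. MSRB6 lies below 0 in pairs 1, 3 and 4 and above 0 in pair 2 under all 4.

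The harvests were then compared. This comparison is not free of the choice of the genes. Choosing by genotype contrast favours genes with little spread within a genotype, which is where harvest differences lie. A missed threshold may therefore come in part from that choice. Neither CCS nor MSRB6 passed the limma F-test over the 4 replicate numbers with genotype in the model, with adjusted p = 0.481 for CCS and adjusted p = 0.463 for MSRB6. Of all tested probe sets 397 passed (8.29%). The mean of each pair ranged from 1180 (pair 1) to 1773 (pair 2) for CCS, and from 346.5 (pair 1) to 657.8 (pair 4) for MSRB6. A p-value that misses the threshold does not show that the harvests were alike. This test rests on the authors' scaling: with arrays shifted to an equal control signal, both genes passed (limma F-test, adjusted p = 0.000193 and 0.000251), together with 4246 of the 4788 probe sets. The controls differed between the array sets, so that shift moves whole sets of arrays against each other for every probe set. Passing under it is therefore not particular to CCS or MSRB6.

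The sums of squares show how the variation of each gene was divided. For CCS, genotype took 75.0% of the variation of the log2 signals, harvest 14.5% and the remainder 10.5%. For MSRB6 these shares were 51.7%, 22.6% and 25.7%. The medians over all tested probe sets were 6.11%, 61.3% and 24.6%. Harvest and the remainder have more degrees of freedom than genotype, so they take larger shares even where nothing differs. The share of genotype comes from the contrast that drew attention to the genes, and is given as a description.

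CCS and MSRB6 were also set against each other over the arrays. Their log2 signals had a Pearson correlation of -0.65 over the 8 arrays, and of -0.07 once the mean of each genotype was taken out. The second value pools both genotypes, and can be near 0 where they run in opposite directions. No correlation was computed for a genotype alone. In yda-2 both genes were highest in replicate 2. In WT, CCS was highest in replicate 2 and MSRB6 in replicate 4. There CCS was higher, and MSRB6 lower, in replicates 1 and 2 than in replicates 3 and 4. These values describe 8 arrays that share genotype and harvest.

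The proteins that CCS loads could not be followed. None of the 8 superoxide dismutase genes looked for, CSD1, CSD2 and CSD3 of the copper/zinc type among them, had a probe set named as its own in the annotation used here, and they were not analysed here. Of 26 copper handling genes, ARPN, which encodes the small copper protein plantacyanin, was the single one with probe sets. Its 3 probe sets had mean signals of 22.5, 25.3 and 73.3 over all arrays, below the limit of 100, and were not tested. The annotation names a single gene for 2035 of the 4788 tested probe sets, so other genes of these groups may have been measured without a name.

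Of the 13 other methionine sulfoxide reductase genes, 3 were measured and 0 passed in limma, with adjusted p = 1.00 for each. MSRA5, of the A type, had 133.9 ± 42.5 in yda-2 and 179.4 ± 41.8 in WT (SD, n = 4 each), a log2 difference of -0.41. MSRB5 had 326.5 ± 195.1 in yda-2 and 254.8 ± 88.2 in WT, a difference of 0.25. MSRB9 had 130.6 ± 134.7 in yda-2 and 102.8 ± 49.7 in WT, a difference of 0.03 that turned to -0.0039 with median centring. None of these 3 had a difference as low as that of MSRB6, and whether MSRB6 differs from them in its response was not tested.

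MSRB6 lies on chromosome 4 in a row of related genes, and in the gene order of assembly TAIR10.1 MSRB5 is its nearest protein-coding neighbour on one side. MSRB5 had 187.8, 290.3, 216.0 and 611.9 in yda-2 replicates 1 to 4, against 212.2, 294.2, 156.4 and 356.2 in WT. It was higher in yda-2 in 2 of 4 pairs, and replicate 4 of yda-2 stood highest. MSRB4 and MSRB3 follow on the same side and had no probe set of their own. On the other side KEA3 had none, and DER2.2, the next gene after it, had 185.6 ± 43.3 in yda-2 and 187.4 ± 51.0 in WT, a log2 difference of -0.01 (limma, adjusted p = 1.00). The gene on either side of CCS on chromosome 1 had no probe set of its own. Whether the probes of MSRB6 or of MSRB5 also bind transcripts of their relatives was not tested.

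Thioredoxins and glutaredoxins hand electrons to the methionine sulfoxide reductases. Of 36 genes on the list of these proteins and their reductases, 7 had a probe set, 6 were tested and 0 passed in limma. The glutaredoxin gene ROXY1, with a mean signal of 82.0 over all arrays, was below the limit of 100 and not tested. All 6 tested genes lay below 0 under the authors' scaling, as did 2251 of the 4788 tested probe sets. The median of the 6 was -0.30, against 0.02 for all tested probe sets. The thioredoxin genes TO1 and TO2, which were not on this list and are described below, lay above 0. With quantile normalization 5 of the 6 were below 0, with median centring 6, and with the arrays at an equal control signal 2. TRXF2, a chloroplast thioredoxin that activates enzymes of carbon fixation in the light, had 3708, 2666, 4417 and 3284 in yda-2, against 4432, 3809, 4520 and 5377 in WT. It was lower in yda-2 in 4 of 4 pairs, as were 7.10% of the tested probe sets, and the groups overlapped. Its log2 difference was -0.38 (SE 0.26, limma, adjusted p = 1.00). With the replicate block the SE was 0.18 (limma, unadjusted p = 0.060, adjusted p = 0.716).

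The glutaredoxin GrxC5 had 326.6 ± 103.2 in yda-2 and 445.6 ± 124.2 in WT (SD, n = 4 each), a log2 difference of -0.44. The chloroplast thioredoxin ty2 had 364.7 ± 179.9 in yda-2 and 429.7 ± 42.4 in WT, a difference of -0.40, with yda-2 replicate 3 at 114.8. Without the pair of replicate 3 its difference was 0.08. NTRC, a chloroplast reductase that carries its own thioredoxin domain, had a difference of -0.17. The loci AT2G20270 and AT2G04700, entered on the list as GRXS12 and FTRB, have no symbol in the gene table used here. Their differences were -0.23 and -0.03. A pair of mitochondrial thioredoxin genes, TO1 and TO2, was added after the names on the array had been seen. TO1 was at 0.28, with 655.6 ± 88.5 in yda-2 and 548.3 ± 153.1 in WT, and TO2 was at 0.24.

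Enzymes that remove hydrogen peroxide, the product of superoxide dismutases, had 3 measured genes of 28, and 0 passed in limma. TAPX, the ascorbate peroxidase of the thylakoid membrane, has 2 probe sets, and whether they differ from each other was not tested. Probe set 12886_s_at had 1135, 1378, 1136 and 1524 in yda-2, against 1515, 1454, 1793 and 1787 in WT. It was lower in yda-2 in 4 of 4 pairs, as were 7.10% of the tested probe sets. Its log2 difference was -0.34 (SE 0.22, and 0.18 with the replicate block). Probe set 17411_s_at had 1380 ± 393 in yda-2 and 1381 ± 480 in WT (SD, n = 4 each). Its difference of 0.04 (SE 0.31, and 0.21 with the replicate block) turned to -0.00089 with quantile normalization. SAPX, the ascorbate peroxidase of the stroma, was at -0.07, and the locus AT3G11630, entered on the list as BAS1, at -0.16. Whether the probe sets of TAPX and AT3G11630 also bind transcripts of related genes was not tested.

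Glutathione reductases, which regenerate the glutathione that backs the ascorbate cycle, were measured for GR1 and GR, the 2 of 17 ascorbate and glutathione genes with a probe set. GR1 had 1003 ± 331 in yda-2 and 1260 ± 791 in WT (SD, n = 4 each), a log2 difference of -0.17, and GR was at -0.18. Glutathione transferases, which attach glutathione to reactive or foreign compounds, had 3 measured genes of 36, all above 0 under the 4 scalings compared. Under the authors' scaling 2537 of the 4788 tested probe sets were also above 0. GSTU16, GSTU18 and GSTF3 had differences of 0.25, 0.25 and 0.18. Whether the GSTF3 probe set, 12764_f_at, or the GR probe set, 13262_s_at, also binds transcripts of related genes was not tested. None of these 5 genes passed in limma.

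Over all redox lists, 20 probe sets of 19 genes were tested and 0 passed in limma, against 0.0418% of all tested probe sets. With the replicate block 0 passed, against 0.188%, and the lowest adjusted p among the 20 was 0.716 (limma). None of the 20 was at an unadjusted p under 0.05, with the block or without it, against 3.22% of all tested probe sets without it and 7.10% with it. Their log2 differences lay between -0.44 and 0.28, with a median of -0.12, and 8 were above 0 and 12 below. Of all 4788 tested probe sets, 2537 were above 0 and 2251 below. In none of the 20 did the groups part without overlap. Of all tested probe sets, 1.73% had every yda-2 value above every WT value and 0.647% had every one below. With shares this small, a count of 0 among 20 is no result about the redox genes. For 14 of the 20 the SE was larger than the difference itself. The simulations described below found 2.55% of 2-fold changes without the block and 32.8% with it. All 20 differences were smaller than 2-fold, so missing the threshold says little about any of them.

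**Figure D3:**
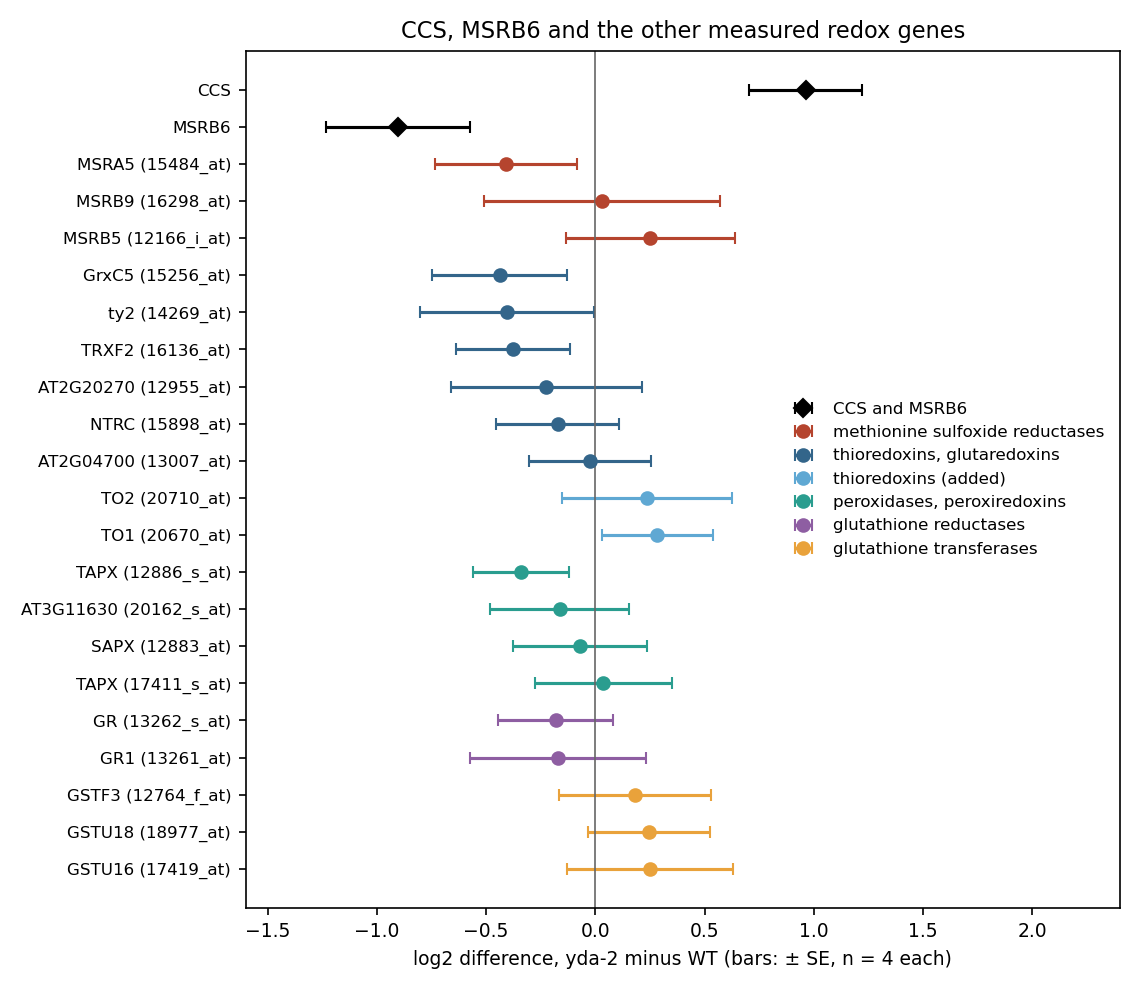
Log2 difference, yda-2 minus WT, of CCS, MSRB6 and the 20 other tested probe sets of redox genes, with bars of 1 SE from the fit (n = 4 each) and colours for the gene groups. CCS at 0.96 and MSRB6 at -0.90 were chosen with such differences in view, and the other probe sets lie between -0.44 and 0.28.

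Genes whose pattern over the arrays was most like that of CCS were looked up among the other 2034 tested probe sets with a single gene, by the Pearson correlation of log2 signals over 8 arrays. AT1G23040 came first, with a correlation of 0.98. It had 979.4 ± 131.3 in yda-2 and 739.1 ± 84.9 in WT (SD, n = 4 each), and its correlation with CCS was 0.95 once the genotype means were taken out. AT4G33420, AT1G03290, AT2G20870 and AT4G39140 followed, with correlations of 0.94, 0.93, 0.90 and 0.89, and with correlations of 0.78, 0.68, 0.82 and 0.59 once the genotype means were taken out. CCS was chosen for its genotype difference, so genes ranked by likeness to it over all 8 arrays tend to share that difference by selection. The most opposite were AT2G32560, AT2G35880 and AT2G35390, at -0.95, -0.89 and -0.88. With 1 array left out, 1 to 4 of the 5 most alike genes stayed among the top 5, and 1 did without the pair of replicate 2, with quantile normalization or with control centring, so the choice of these genes is loose.

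For MSRB6 the most alike were AT2G20100 at 0.94, AT2G24060 at 0.91, the TAPX probe set 12886_s_at at 0.90, AT2G29210 at 0.90 and AT4G28780 at 0.89. AT2G20100 had 113.4 ± 26.6 in yda-2 and 163.0 ± 35.9 in WT (SD, n = 4 each). TAPX was the one gene of the redox lists among them, and its correlation with MSRB6 was 0.79 once the genotype means were taken out. The second TAPX probe set was not among the most alike. The most opposite were AT4G22820, AT1G05340 and AT4G33910, at -0.90, -0.89 and -0.89. With 1 array left out, 2 to 4 of the 5 stayed among the top 5, and without the pair of replicate 2, 1 did. None of the genes named for likeness to CCS or MSRB6 passed the genotype test in limma, with adjusted p between 0.943 and 1.00. The loci given by number have no symbol in the gene table used here.

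**Figure D4:**
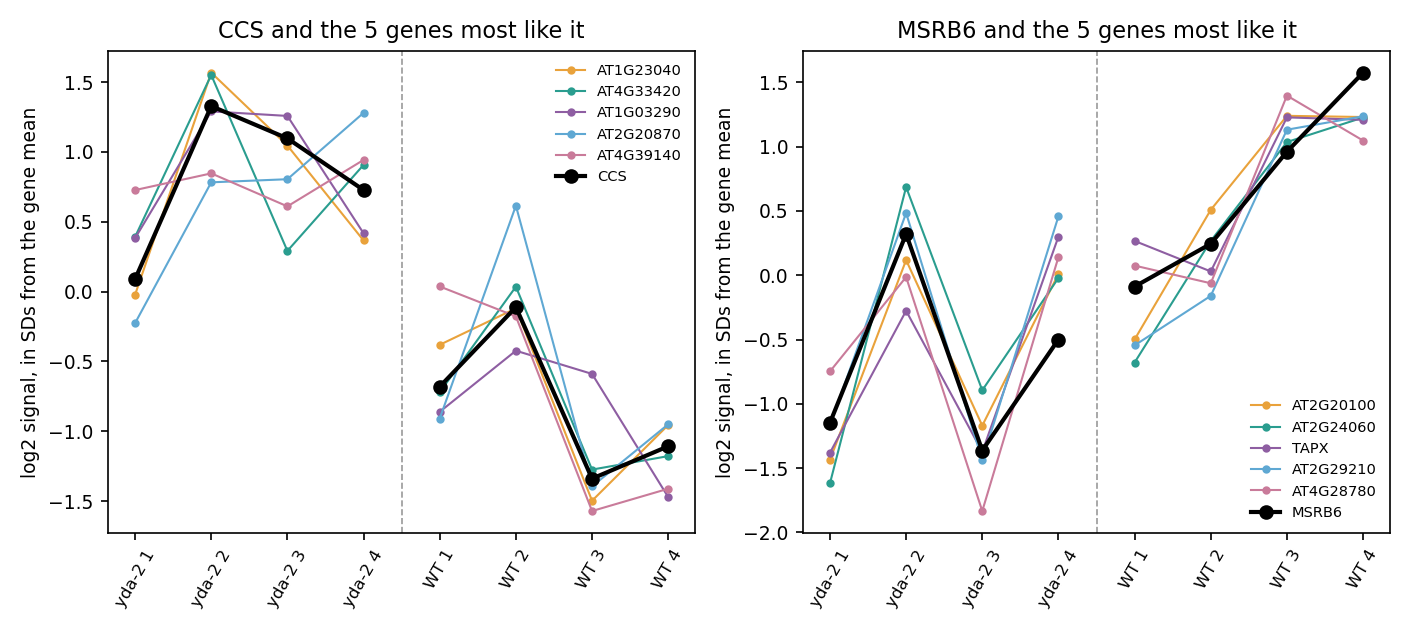
Log2 signals of CCS (left) and MSRB6 (right), in black, and of the 5 genes most like each, in colours, as SDs from the mean of each gene over 8 arrays, with yda-2 arrays left of WT arrays. Lines join the arrays of a genotype only to guide the eye. The genes were picked for correlating with CCS or MSRB6 over these arrays, at 0.89 to 0.98 for CCS and 0.89 to 0.94 for MSRB6, so the likeness of the profiles restates that choice.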

How the data were processed

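Per the labels, RNA was hybridized to Affymetrix AtGenome1 arrays and the authors scaled the average signal of all 8 arrays to a target of 500. What was deposited is 1 linear signal intensity for each probe set on each array, without detection calls. How probes were summarised is not given in the sources used here. Such scaling sets the mean of an array and not its range.

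Signals were used as log2(signal + 16), a scale that shrinks differences of dim transcripts. After removal of the 50 controls, the 4788 probe sets whose signal averaged 100 or more were tested with limma 3.58.1 in R 4.3.3 (lmFit, eBayes with trend), two-sided, with Benjamini-Hochberg adjustment over all of them at 0.05. The fit had no replicate block. Harvests were compared by limma's F-test with genotype in the model. In simulations on these 4788 probe sets, harvest effects included, 2.55% of 2-fold and 59.9% of 4-fold genotype changes were found without the block, and 32.8% and 81.3% with it. The harvest test recovered 62.8% of 4-fold differences. Figures were drawn with matplotlib 3.10.9.

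The labels give the replicates as separate harvests, and on this ground the numbers were taken to pair the arrays. Deviations of same-numbered arrays from their genotype means correlated at 0.596, 0.296, 0.324 and 0.577. Arrays of different numbers were not compared in this way, so these values cannot show that the numbers pair the arrays.

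Names come from the platform annotation, updated through gene identifiers to assembly TAIR10.1, with 3784 of 3794 single-gene probe sets matched. No name was taken from the 70 probe sets with several genes, and no coordinates or sequences are printed. The genes and lists were chosen with earlier results of these data known. The text names every tested gene of the superoxide dismutase, copper and methionine sulfoxide reductase lists, up to 4 of each other list by unadjusted p, and the 5 genes most like and 3 least like each of CCS and MSRB6. Also named, outside this rule, are NTRC's list mates AT2G20270 and AT2G04700, TO1 and TO2, the untested ROXY1, and the neighbouring genes. Alternatives were other pseudocounts, filters and scalings, no trend, array weights, the block, and leaving out arrays or pairs.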

Additional observations from a re-analysis of the deposited data

Results flagged for a closer look

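Of 74 groups of 4 arrays examined, 4 held an array far from the other 3, and chance flags about 1 in 20 groups. MSRB9 was at 332.3 in yda-2 replicate 2, above the other 3 yda-2 arrays, and without that array its log2 difference was -0.50. The thioredoxin gene ty2 was at 366.9 in WT replicate 4, below the other 3 WT arrays. AT2G32560, opposite in pattern to CCS, was at 418.2 in WT replicate 2, below the other WT arrays, and AT4G22820, opposite in pattern to MSRB6, was at 1381 in WT replicate 1, above the other WT arrays. No array of CCS or MSRB6 was marked in this way.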

How the results depend on the processing

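The log2 differences of CCS and MSRB6 kept their sign under every alternative run. With the replicate block they were again 0.96 and -0.90, with SEs of 0.21 and 0.28. With 1 array or pair left out, CCS lay between 0.80 and 1.13 and MSRB6 between -1.22 and -0.68. CCS moved by more than the replicate SD to 1.35 with control centring, and MSRB6 to -0.33 within replicates 1 and 2 and to -1.48 within replicates 3 and 4, the cause of which was not tested. The array sets, control centring and the TO genes were added after the data were seen. The harvest test, run with the other pseudocounts, filters and scalings, without the trend, with array weights and without each pair, missed the threshold for both genes except with control centring (adjusted p = 0.000193 for CCS and 0.000251 for MSRB6). The number of probe sets past the harvest test, 397, became 230 without a filter, 84 with quantile normalization, 138 without the trend, 883 with array weights, 4246 with control centring and 51 to 646 without 1 pair. Probe sets called higher in yda-2, 2 in number, became 9 with the replicate block, 10 with array weights (and 1 called lower), 1 without a filter, with median centring, quantile normalization or control centring, and 0 with a pseudocount of 1 or a filter of 200. Without 1 array there were 0 to 2, and with the block and without 1 pair 0 to 23 higher and 0 to 5 lower, the most without pair 2. The redox lists had 0 calls throughout.

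Of the 20 redox list probe sets, 16 changed sign under some setting, in 14 of 196 values with all arrays and 29 of 240 with arrays left out. Signs turned with quantile normalization for TAPX 17411_s_at (-0.00089) and AT2G04700 (0.0385), with median centring for MSRB9 (-0.0039), and with array weights for SAPX (0.22) and TAPX 17411_s_at (-0.15). With control centring they turned for GR (0.20), GR1 (0.21), TAPX 12886_s_at (0.044), AT3G11630 (0.22), SAPX (0.31), TRXF2 (0.0076), NTRC (0.21), AT2G20270 (0.16) and AT2G04700 (0.36). With arrays or pairs left out the values ran from -0.062 to 0.52 for TO2, -0.15 to 0.085 for AT2G04700, -0.29 to 0.16 for SAPX, -0.21 to 0.23 for TAPX 17411_s_at, -0.011 to 0.42 for GSTF3, -0.50 to 0.28 for MSRB9, -0.63 to 0.044 for AT2G20270, -0.64 to 0.078 for ty2, -0.44 to 0.19 for GR1, -0.33 to 0.00042 for AT3G11630, -0.091 to 0.45 for MSRB5, -0.096 to 0.40 for GSTU18 and -0.39 to 0.010 for GR.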
